A study of Mus musculus with 6 samples.

Results

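The genes described here are 10 mouse genes of muscle protein breakdown: the MuRF ubiquitin ligases Trim63, Trim54 and Trim55, the F-box genes Fbxo32, Fbxo30, Fbxo31 and Fbxo21, the ligase Cblb, and the transcription factors Foxo1 and Foxo3. They were chosen by name with earlier results of these data known, as were the gene lists used further below. The shares of all genes set beside them are therefore a description and not an independent test. All 10 were found among the 55414 Ensembl identifiers of the deposited count table. RNA was sequenced from C2C12 cells, a wild-type mouse myoblast line grown in serum-containing medium, 3 libraries from cells given a control siRNA (siRNA-NC, called siControl) and 3 from cells given an siRNA against USF2 (siRNA-USF2, called siUsf2). The labels name no time after transfection and no differentiation step. They do not say whether replicates were separate cultures, so the p-values below reflect library-to-library spread that could be purely technical. The series asks which genes respond when USF2, a transcription factor of the bHLH-zipper class with an E-box binding domain, is knocked down.

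Muscle protein is broken down largely by the ubiquitin-proteasome system, in which a ligase selects the protein to be tagged. The MuRF proteins are RING-finger ligases of the TRIM family that sit on the sarcomere, while F-box proteins are the substrate-binding subunits of SCF ligases, built on a cullin scaffold. MuRF1 (Trim63) and atrogin-1 (Fbxo32) are the best-known ligases of muscle atrophy, and in wasting muscle FoxO factors, held out of the nucleus by Akt when insulin or IGF signalling is active, raise the transcription of both. In differentiating myoblasts the MuRF proteins also belong to the building of the sarcomere.

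The MuRF genes were lower in siUsf2 1 and 2, and the F-box, Cblb and FoxO genes did not pass the test. Trim63 was at 22.7% of its siControl level, Trim54 at 31.1% and Trim55 at 76.6%. Those are values of the 5-library edgeR fit described below, in which none of the 10 was called higher. The promoters of Trim63 and Trim54 are shown because these genes had the largest changes of the 10, and that of Foxo1 because it is a regulator whose level did not pass the test. Each is the run of 250 bases just before the RefSeq start of transcription (GRCm38.p6, plus strand for all 3), at chr4:134314870-134315119 for Trim63, chr5:31116362-31116611 for Trim54 and chr3:52268087-52268336 for Foxo1. Capitals mark the E-box letters CANNTG and the forkhead core TGTTTA, searched on both strands.
Trim63: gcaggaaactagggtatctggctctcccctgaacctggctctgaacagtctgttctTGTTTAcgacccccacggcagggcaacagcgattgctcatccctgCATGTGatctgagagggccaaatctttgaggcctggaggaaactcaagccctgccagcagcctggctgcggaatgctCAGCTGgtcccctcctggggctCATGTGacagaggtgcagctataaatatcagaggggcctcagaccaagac
Trim54: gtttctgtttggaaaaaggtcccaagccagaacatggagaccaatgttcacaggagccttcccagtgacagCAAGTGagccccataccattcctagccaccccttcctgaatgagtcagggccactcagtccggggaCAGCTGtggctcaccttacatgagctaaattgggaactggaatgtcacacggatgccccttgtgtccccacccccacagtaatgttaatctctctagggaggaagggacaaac
Foxo1: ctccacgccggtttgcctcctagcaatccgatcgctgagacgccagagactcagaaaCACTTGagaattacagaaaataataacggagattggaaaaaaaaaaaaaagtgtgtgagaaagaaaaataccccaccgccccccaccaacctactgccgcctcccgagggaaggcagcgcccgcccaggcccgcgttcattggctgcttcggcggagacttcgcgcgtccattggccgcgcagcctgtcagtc

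The Trim63 window held 3 E-box matches, CATGTG beginning 149 and 50 bases before the start and CAGCTG beginning 72 bases before it, and TGTTTA beginning 194 bases before it. The Trim54 window held CAAGTG 179 bases and CAGCTG 113 bases before the start, and the Foxo1 window held CACTTG 193 bases before it. The annotated gene start given below for Trim54 lies downstream of its RefSeq start, and the bases between them were not searched. RefSeq promoters were matched for 8 of the 10 genes. The Cblb window held 1 E-box match, CAAGTG, and those of Foxo3, Fbxo30, Fbxo31 and Fbxo21 held none. The letters CACGTG, the canonical USF site and 1 form of CANNTG, were in none of the 8 windows. Among all 32851 promoter windows of the same length, CANNTG was in 66.2%, CACGTG in 6.02% and TGTTTA in 12%. These are matches of letters and not measured binding sites.

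Total counts were 14790997 to 17715250 in siControl, 15817183 and 14932880 in siUsf2 1 and 2, and 3414565 in siUsf2 3. The library labelled siUsf2 3 stood apart: its pseudogene share was 0.974% of counts, against 14.0% to 15.3% in the other 5. Usf2 itself was at 26.2, 31.2 and 23.0 CPM (the read count relative to the library total) in siControl 1 to 3, at 17.1 and 15.3 CPM in siUsf2 1 and 2, and at 30.8 CPM in the library labelled siUsf2 3, so the Usf2 level in that library goes against its label. Results are therefore given for 5 libraries (siControl 1 to 3, siUsf2 1 and 2) and for all 6, with that library shown apart. Of 7 markers of myogenic cells all were detected, with summed levels of 3458 to 4165 CPM in siControl, 2254 and 2441 CPM in siUsf2 1 and 2, and 3134 CPM in the library labelled siUsf2 3. Of 4 fibroblast markers all were detected in some library, at 203 to 225, 256 to 278 and 234 CPM in the same order, with Pdgfra and Cd34 making up nearly all of it. Endothelial, blood, adipocyte, neural and epithelial lists summed to at most 5.27 CPM in any library, with Tie1, Adgre1, Lep, Sox10 and Krt5 at 0 throughout. The part of these marker levels in the results below was not tested. In such bulk RNA, fewer cells of a type and less RNA per cell cannot be told apart.

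In the 5 libraries, edgeR's quasi-likelihood test called 3 of the 10 genes lower (Benjamini-Hochberg adjusted p below 0.05), against 6.4% of all 17217 genes tested, and 0 of 10 higher, against 4.97%. DESeq2 also called 3 of the 10 there, all lower, against 9.6% of all genes in either direction. The median log2 fold change of the 10 was 0.02, and that of all genes was -0.01. The CPM values of siUsf2 1 and 2 did not overlap those of siControl for 5 of the 10 genes, against 41.3% of all genes, so the count of separated genes was close to the background. Those below were the 3 MuRF genes, and those above were Fbxo21 and Foxo3.

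Trim63 (ENSMUSG00000028834, chromosome 4, 134315120 to 134329629, plus strand, GRCm38) encodes MuRF1, the ligase that tags thick-filament proteins. It had 130, 115 and 177 counts in siControl 1 to 3, or 8.79, 7.18 and 9.99 CPM. It had 40 and 21 counts in siUsf2 1 and 2, or 2.53 CPM (exact Poisson 95% interval 1.81 to 3.44) and 1.41 CPM (0.871 to 2.15). The library labelled siUsf2 3 had 12 counts, or 3.51 CPM (1.82 to 6.14). All siUsf2 libraries lay below every siControl library, and siUsf2 2 was the lowest. In the 5 libraries Trim63 fell from 8.66 ± 1.41 to 1.97 ± 0.794 CPM (SD, n = 3 and n = 2), 4.41-fold lower with a 95% interval of 2.99 to 6.52 (log2 fold change -2.14 ± 0.28 (SE), edgeR adjusted p = 1.62e-06). Trim63 also had the fewest counts of the 10 in siControl 1 and 2 and in every siUsf2 library.

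Trim54 (ENSMUSG00000062077, chromosome 5, 31116712 to 31137630, plus strand) encodes MuRF3, which binds microtubules and the Z-disc. It had 12.2, 12.1 and 9.54 CPM in siControl 1 to 3 and 4.11 and 2.95 CPM in siUsf2 1 and 2, from 181, 194, 169, 65 and 44 counts. The library labelled siUsf2 3 had 36 counts, or 10.5 CPM (exact Poisson 95% interval 7.38 to 14.6). So siUsf2 1 and 2 were below every siControl library, while the library labelled siUsf2 3 was inside the siControl range. In the 5 libraries Trim54 fell to 31.1% of siControl (95% interval 22.6% to 42.8%, log2 fold change -1.68, SE 0.22, edgeR adjusted p = 2.95e-06). An annotated antisense gene, Gm15469, overlaps 26.6% of its exonic bases. That gene had 5, 6 and 0 counts in siControl and 0 in each siUsf2 library, and the strand setting of the counting is not given in the sources used here.

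Trim55 (ENSMUSG00000060913, chromosome 3, 19644474 to 19692421, plus strand) encodes MuRF2, a ligase that binds titin. It was at 63.0, 61.8 and 73.2 CPM in siControl 1 to 3, at 47.0 and 55.2 CPM in siUsf2 1 and 2, and at 38.1 CPM in the library labelled siUsf2 3. All siUsf2 libraries were below every siControl library, by a smaller margin than for Trim63. In the 5 libraries Trim55 fell to 76.6% of siControl (95% interval 65.9% to 89.1%, log2 fold change -0.38, SE 0.11, edgeR adjusted p = 0.0168). That call ended without siUsf2 1, where the log2 fold change was -0.26 (edgeR adjusted p = 0.361). A pseudogene copy, Gm7559, had 1 to 10 counts in the 5 libraries and 0 in the library labelled siUsf2 3, and with its counts added the log2 fold change was -0.39.

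**Figure D1:**
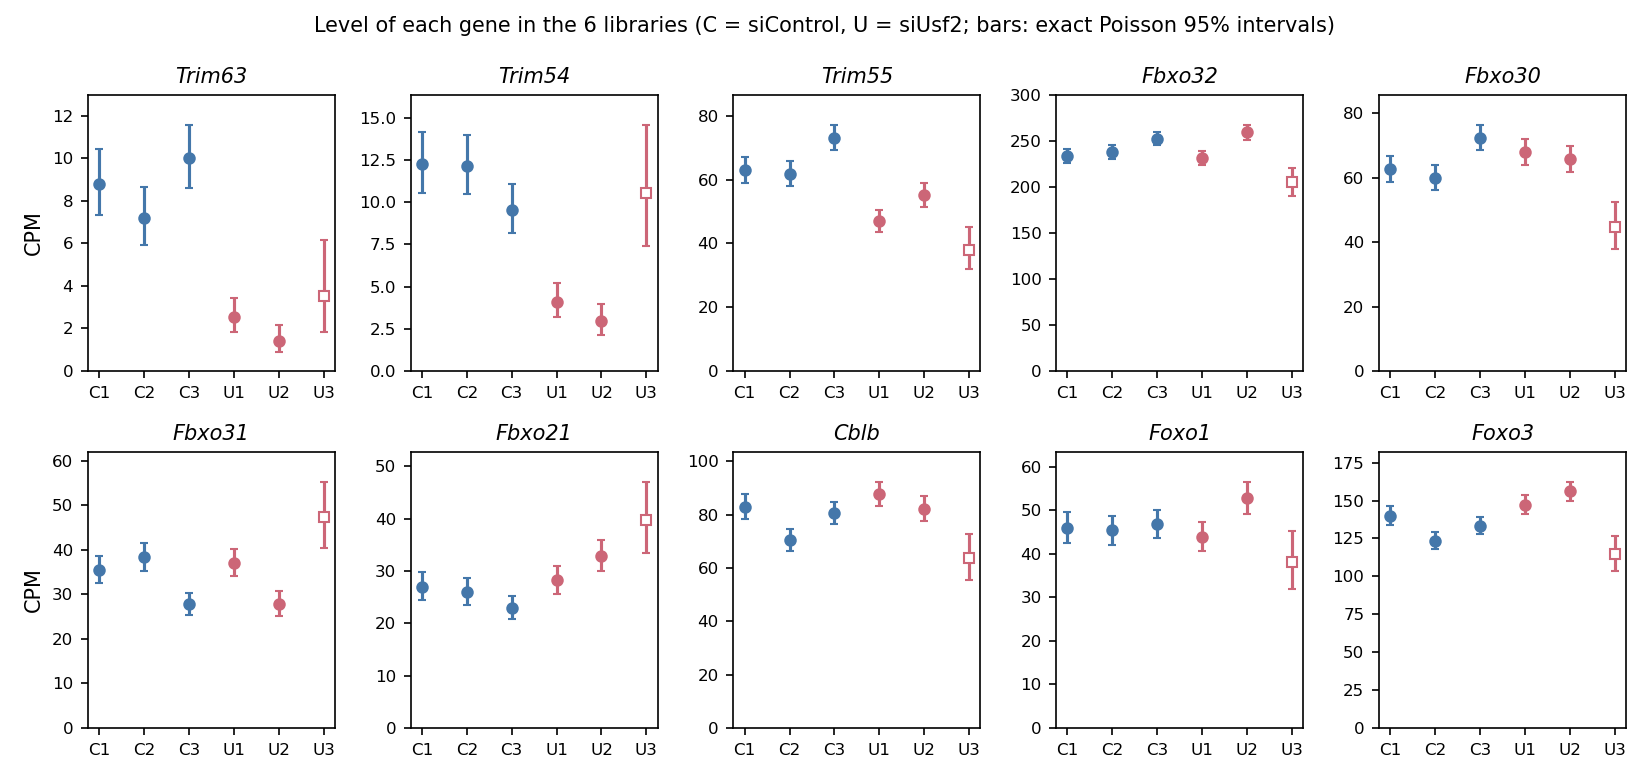
CPM of each of the 10 genes (vertical axes, each from 0 and on its own scale) in siControl 1 to 3 (C1 to C3, blue) and siUsf2 1 to 3 (U1 to U3, red; the open square is the library labelled siUsf2 3), with exact Poisson 95% intervals that cover counting error only. Trim63 sat at 7.18 to 9.99 CPM in siControl and at 1.41 to 3.51 CPM in siUsf2, whereas Fbxo32 ranged from 205 to 260 CPM with the groups overlapping.

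The mix of MuRF transcripts differed between libraries. Per length (RPKM, which is CPM divided by the exon length in kilobases), the 3 MuRF genes summed to 35.3, 34.2 and 37.7 in siControl. The sum was 21.4 and 23.3 in siUsf2 1 and 2, and it was 22.9 in the library labelled siUsf2 3. Trim63 made up 7.39% to 9.33% of that sum in siControl and just 4.15% and 2.12% in siUsf2 1 and 2, and its share was 5.40% in the library labelled siUsf2 3. Trim54 made up 17.6% to 24.7% in siControl, against 13.4% and 8.81% in siUsf2 1 and 2, but 32.1% in the library labelled siUsf2 3. Trim55 was the main MuRF transcript in every library, at 62.5% to 89.1% of the sum. The log2 ratio of Trim63 to Trim55 counts was -2.94 ± 0.14 in siControl and -4.75 ± 0.76 in siUsf2 1 and 2 (SD, n = 3 and n = 2), a difference of -1.82. The ratio of Trim54 to Trim55 differed by -1.32. Both differences had an exact two-sided permutation p = 0.1, the smallest that 3 against 2 libraries can give, and 0.22 after adjustment over 11 such ratios. In the library labelled siUsf2 3, the log2 ratio of Trim54 to Trim55 was -1.85, above every siControl library (-2.94 to -2.35). With all 6 libraries the difference was -0.65 for Trim54 to Trim55 (exact two-sided permutation p = 0.4). It was -1.38 for Trim63 to Trim55 (exact two-sided permutation p = 0.1).

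**Figure D2:**
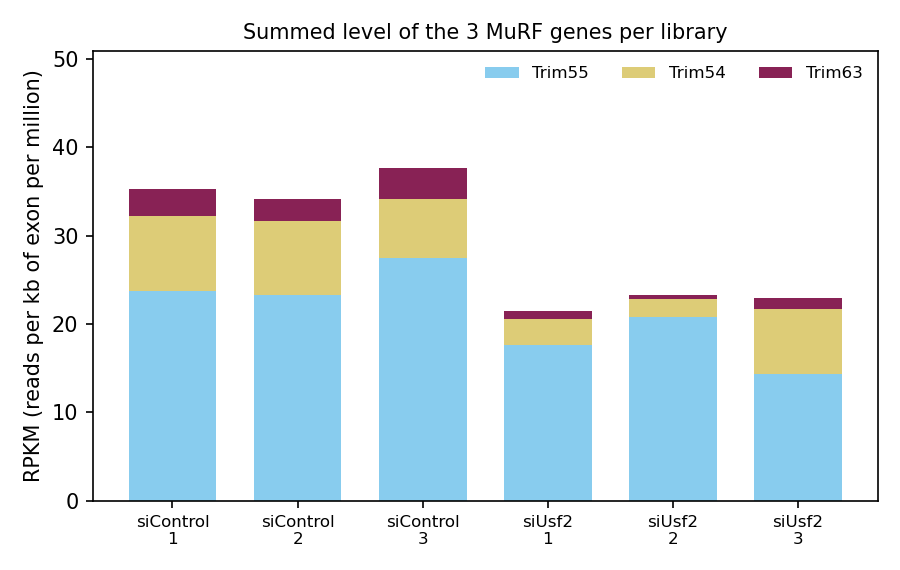
Stacked RPKM of Trim55, Trim54 and Trim63 (vertical axis) in each of the 6 libraries (horizontal axis), 1 bar per library with no error shown. The siControl bars reach 34.2 to 37.7 RPKM and the siUsf2 bars 21.4 to 23.3, with a thicker Trim54 band in the library labelled siUsf2 3 than in siUsf2 1 and 2.

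Fbxo32 (ENSMUSG00000022358, chromosome 15, 58175879 to 58214932, minus strand) encodes atrogin-1, the F-box ligase usually named beside MuRF1. Its level was 234, 238 and 253 CPM in siControl 1 to 3, 231 and 260 CPM in siUsf2 1 and 2, and 205 CPM in the library labelled siUsf2 3. In the 5 libraries the groups overlapped, with siUsf2 1 the lowest and siUsf2 2 the highest. The change on the log2 scale was 0.01 ± 0.09 (SE, edgeR adjusted p = 0.962), and its 95% interval of 89.0% to 114% of siControl bounds the change that these libraries allow. Within each library, the log2 ratio of Trim63 to Fbxo32 counts was -4.73, -5.05 and -4.66 in siControl, -6.52 and -7.53 in siUsf2 1 and 2, and it was -5.87 in the library labelled siUsf2 3. The difference in that ratio was -2.21 in the 5 libraries and -1.82 in all 6, each with an exact two-sided permutation p = 0.1, the smallest the design allows (adjusted over 11 ratios, 0.22 and 0.275).

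The other F-box genes also did not pass the test in the 5 libraries. Fbxo30 (ENSMUSG00000047648, chromosome 10, 11281330 to 11298052, plus strand), or MUSA1, a ligase restrained by BMP signalling in muscle, was at 62.7, 60.1 and 72.5 CPM in siControl and 68.0 and 65.8 CPM in siUsf2 1 and 2. The Fbxo30 groups overlapped, with a log2 fold change of 0.02 (95% interval 88.3% to 117% of siControl, edgeR adjusted p = 0.912). The library labelled siUsf2 3 was lower, at 44.8 CPM.

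Fbxo31 (ENSMUSG00000052934, chromosome 8, 121549440 to 121578806, minus strand), whose protein directs the breakdown of cyclin D1, was at 35.5, 38.3 and 27.8 CPM in siControl and 37.1 and 27.9 CPM in siUsf2 1 and 2. Both siUsf2 1 and 2 lay within the siControl range, and the log2 fold change was -0.07 (95% interval 78.4% to 116% of siControl, edgeR adjusted p = 0.803). Fbxo31 was highest in the library labelled siUsf2 3, at 47.4 CPM.

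Fbxo21 (ENSMUSG00000032898, chromosome 5, 117976730 to 118010201, plus strand), also called SMART, a FoxO-dependent ligase of denervated muscle, was at 27.0, 26.0 and 23.0 CPM in siControl, 28.2 and 32.9 CPM in siUsf2 1 and 2, and 39.8 CPM in the library labelled siUsf2 3. All siUsf2 libraries lay above every siControl library, with a gap of little more than 1 CPM for siUsf2 1. The log2 fold change of 0.26 (SE 0.12) did not pass in the 5 libraries (edgeR adjusted p = 0.186, unadjusted p = 0.0441). Fbxo21 has a processed pseudogene, Gm5403, which matches it over 2015 bases at 84% identity. Whether reads of Fbxo21 were counted on Gm5403 or the reverse was not tested. Gm5403 had 93 to 175 counts in the 5 libraries and 0 in the library labelled siUsf2 3. Fbxo21 and Gm5403 together held 35.2, 31.8 and 30.8 CPM in siControl, 36.4 and 44.7 CPM in siUsf2 1 and 2, and 39.8 CPM in the library labelled siUsf2 3. On that sum, chosen after seeing the data, the log2 fold change was 0.30 in the 5 libraries (edgeR adjusted p = 0.0905).

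Cblb (ENSMUSG00000022637, chromosome 16, 52031225 to 52208048, plus strand) encodes the RING ligase that degrades IRS1 in unloaded muscle. It was at 83.0, 70.5 and 80.5 CPM in siControl, 87.7 and 82.3 CPM in siUsf2 1 and 2, and 63.8 CPM in the library labelled siUsf2 3. The groups overlapped, and the 5-library log2 fold change was 0.11 (95% interval 94.3% to 124% of siControl, edgeR adjusted p = 0.510).

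Foxo1 (ENSMUSG00000044167, chromosome 3, 52268336 to 52353221, plus strand) had the tightest siControl values of the 10, at 45.9, 45.4 and 46.7 CPM. It was at 43.9 and 52.8 CPM in siUsf2 1 and 2, on either side of the siControl range, and at 38.1 CPM in the library labelled siUsf2 3. The log2 fold change was 0.06 (95% interval 89.6% to 121% of siControl, edgeR adjusted p = 0.791). Foxo3 (ENSMUSG00000048756, chromosome 10, 42181841 to 42276755, minus strand), the FoxO factor most tied to atrogin-1 transcription, was at 140, 124 and 133 CPM in siControl and at 147 and 156 CPM in siUsf2 1 and 2, above every siControl library. The library labelled siUsf2 3 was at 115 CPM of Foxo3, below every siControl library. The Foxo3 log2 fold change of 0.18 (SE 0.09) did not pass in the 5 libraries (edgeR adjusted p = 0.195, unadjusted p = 0.0480). Antisense genes overlap 7.78% of the exonic bases of Foxo1 (Gm20402, 0 counts in every library) and 2.67% of those of Fbxo32 (Gm15943, 0 to 5 counts). FoxO proteins are controlled largely by phosphorylation and location, which RNA counts do not measure.

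With all 6 libraries, edgeR called 0 of the 10 genes, against 0.042% of 16662 genes tested (10.5% at an unadjusted p below 0.05). At that unadjusted threshold, 3 of the 10 passed: Trim63, Trim55 and Fbxo21. On the log2 scale the change of Trim63 was -1.91 ± 0.36 (SE, edgeR adjusted p = 0.165). It was -0.52 ± 0.18 for Trim55 (edgeR adjusted p = 0.377) and -1.06 ± 0.48 for Trim54 (edgeR adjusted p = 0.540). DESeq2 called 1 of the 10 in the 6 libraries, Trim63 (log2 fold change -1.95, DESeq2 adjusted p = 4.62e-05), against 4.24% of all genes. Trim63 and Trim55 were below every siControl library in all 3 siUsf2 libraries and Fbxo21 above, so 3 of 10 did not overlap, against 22.6% of all genes. The biological coefficient of variation, the spread between replicates beyond counting, was 40.01% with all 6 libraries and 9.25% with 5.

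**Figure D3:**
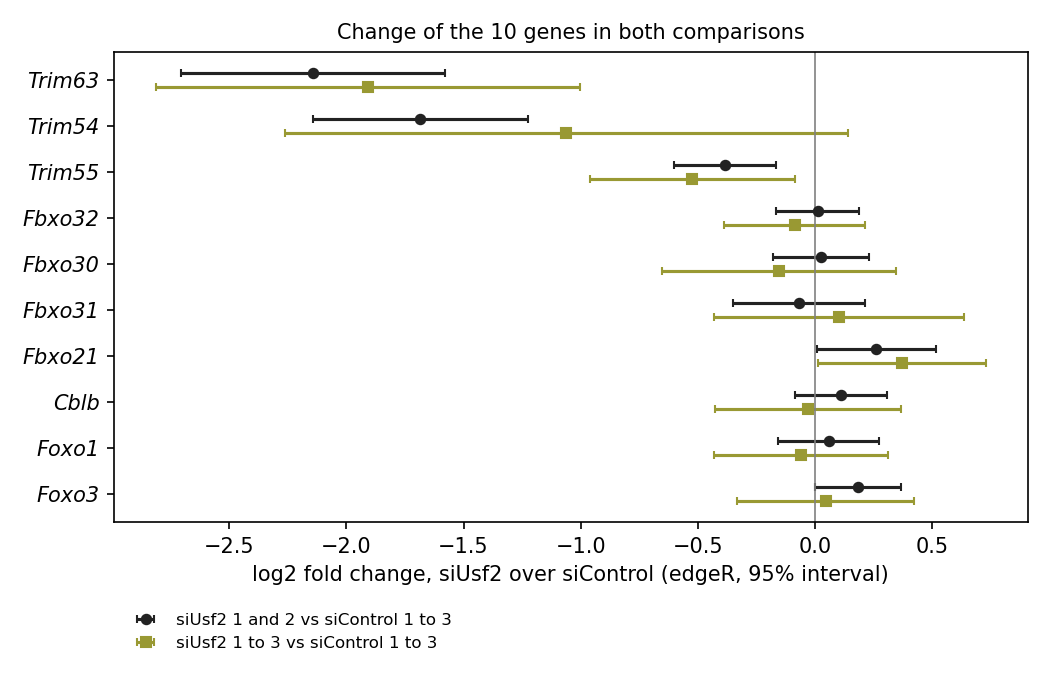
Log2 fold change of siUsf2 over siControl (horizontal axis) for each of the 10 genes (vertical axis), from edgeR in the 5 libraries (black circles) and in all 6 (olive squares), with 95% intervals not adjusted for multiple testing. The MuRF genes lie left of 0, at -2.14, -1.68 and -0.38 in the 5 libraries, and the others lie between -0.07 and 0.26.

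Per length, Fbxo32 was the most abundant of the 10 in siControl, at 34.6 ± 1.45 RPKM (SD, n = 3). Trim55 followed at 24.8 ± 2.35, Foxo3 at 17.5 ± 1.10 and Fbxo30 at 12.5 ± 1.25 RPKM, each with a range apart from its neighbours. The next genes were Trim54 at 7.87 ± 1.06, Cblb at 7.45 ± 0.628, Fbxo31 at 6.18 ± 0.988 and Foxo1 at 5.31 ± 0.0803 RPKM, and each neighbouring pair of these overlapped. Fbxo21 at 4.57 ± 0.376 and Trim63 at 3.05 ± 0.496 RPKM closed the order, with ranges apart from each other. So atrogin-1 transcripts were far above MuRF1 transcripts in these myoblasts, in siControl as well as in siUsf2 1 and 2. In siUsf2 1 and 2, Fbxo32 held 33.2 and 37.2 RPKM, and Trim63 held 0.890 and 0.495 RPKM. Exon lengths came from all annotated transcripts of a gene, so a gene that uses a short isoform is understated.

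The genes whose log2 CPM over the 6 libraries was most like Trim63 among 9282 protein-coding genes of at least 10 CPM were Tbc1d8 (Pearson r = 0.996), Tmem246 (r = 0.994) and Snx19 (r = 0.986). For example, Tbc1d8 was at 13.5, 12.9 and 15.1 CPM in siControl, 8.79 and 6.56 CPM in siUsf2 1 and 2 and 9.66 CPM in the library labelled siUsf2 3. Those most like Fbxo32 were Ipmk (r = 0.998), Pphln1 (r = 0.994) and Tab3 (r = 0.989). Such r values describe 6 points that share their libraries, and 57 genes had an r of at least 0.95 with Trim63 and 37 with Fbxo32.

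The lists around the 10 genes are read against all 17217 genes tested in the 5 libraries, of which 6.4% were called lower and 4.97% higher, with a median log2 fold change of -0.01. In these lists, 4 of the other ubiquitin genes studied in muscle wasting fell in the 5 libraries. Of 22 tested, edgeR called 4 lower and 0 higher and left 18 uncalled, or 18.2% called against 11.4% of all genes, with a median log2 fold change of 0.03 against -0.01. Trim72, or MG53, a membrane repair protein and TRIM ligase of striated muscle, fell from 31.2 to 34.5 CPM in siControl to 6.64 and 7.10 CPM in siUsf2 1 and 2 (log2 fold change -2.26, edgeR adjusted p = 1.60e-12), and had 14.9 CPM in the library labelled siUsf2 3. Asb2, a cullin adaptor of muscle, fell by 0.81 on the log2 scale, Mul1, a mitochondrial ligase, by 0.43 and Ubb, a polyubiquitin gene, by 0.28. Of 13 genes of the SCF core and its cullin regulators, 2 were called lower, 1 higher and 10 not at all, or 23.1% called against 11.4% of all genes, with a median of -0.06 against -0.01. Ube2m, the NEDD8-conjugating enzyme, was at -0.39 and Cops5, the deneddylase subunit of the COP9 signalosome, at -0.33. Skp2, the F-box protein that degrades p27, was at 0.36. In the library labelled siUsf2 3, Ube2m was at 110 CPM (52.8 to 60.4 in siControl) and Cops5 at 59.2 CPM (48.5 to 54.6). Both lay above every siControl library there, while Skp2, at 41.3 CPM, lay inside the siControl range.

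Of 33 proteasome subunit genes, edgeR called 9 lower and 0 higher in the 5 libraries and 24 were uncalled, and the median log2 fold change was -0.26, against -0.01 for all genes. The called share was 27.3%, against 11.4% of all genes. The 26S subunit genes Psmd3, Psmc4 and Psmc5 fell by 0.38, 0.42 and 0.42 on the log2 scale. In the library labelled siUsf2 3 they were at 181, 70.6 and 80.5 CPM, each above every siControl library. With all 6 libraries the sign of the median turned, to 0.23, and 0 of 33 were called by edgeR. Psmc1 was at a log2 fold change of -1.02 with 5 libraries and of 1.69 with all 6, from 9.54 to 15.96 CPM in siControl, 6.70 and 6.76 CPM in siUsf2 1 and 2 and 127 CPM in the library labelled siUsf2 3. That library differed in its pseudogene share as given above, and the part of pseudogene copies in the proteasome values was not tested.

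FoxO family and target genes went both ways. Of 27 tested in the 5 libraries, edgeR called 4 higher and 4 lower and left 19 uncalled, or 29.6% called against 11.4% of all genes. Their median log2 fold change was 0.04, against -0.01. Txnip, which restrains glucose uptake, rose from 121 to 123 CPM in siControl to 193 and 175 CPM in siUsf2 1 and 2 (log2 fold change 0.58, edgeR adjusted p = 1.81e-05), with 198 CPM in the library labelled siUsf2 3. Pdk4, a kinase that shuts off pyruvate dehydrogenase, rose by 0.62 on the log2 scale. Gadd45a, a stress gene, fell by 0.61, and Mt2, a metallothionein, fell by 1.98 from a low level of 2.31 to 4.69 CPM. In the library labelled siUsf2 3, Gadd45a was at 117 CPM, inside the siControl range of 105 to 136 CPM. Mt2 was at 5.27 CPM there, above every siControl library. Pdk4, at 31.9 CPM, was above every siControl library there, as in siUsf2 1 and 2. Foxo6, chosen after its values were seen, fell by 0.76 in log2 units (edgeR adjusted p = 0.00283), from 16.9 to 25.8 CPM in siControl to 13.3 and 13.9 CPM in siUsf2 1 and 2. For Foxo6, the library labelled siUsf2 3 had 27.8 CPM, above every siControl library.

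Of 25 kinases, phosphatases and cofactors upstream of FoxO, 2 were called higher and 2 lower and 21 were uncalled in the 5 libraries, a called share of 16% near the 11.4% of all genes. Their median log2 fold change was 0.02, against -0.01. Akt2, an insulin-responsive kinase that phosphorylates FoxO, fell by 0.61 in log2 units (edgeR adjusted p = 1.19e-04), from 94.3 to 122 CPM to 74.9 and 67.9 CPM. Its level of 181 CPM in the library labelled siUsf2 3 was above every siControl library. Prkaa2, a catalytic subunit of AMPK, fell by 0.46. Igf1r, the IGF1 receptor, rose by 0.28. In the library labelled siUsf2 3, Prkaa2 was at 10.8 CPM, below every siControl library, and Igf1r at 193 CPM, inside the siControl range.

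Of 14 substrates and binding partners of these ligases, 4 were called lower and 1 higher and 9 were uncalled in the 5 libraries, a called share of 35.7% against 11.4% of all genes. Their median log2 fold change was -0.15, against -0.01. Ckm, muscle creatine kinase and a MuRF1 partner, fell from 52.4 to 62.6 CPM to 9.80 and 10.0 CPM (log2 fold change -2.55, edgeR adjusted p = 6.16e-15), with 20.2 CPM in the library labelled siUsf2 3. The myosin light chain Myl1 fell by 1.84 and the myosin-binding protein Mybpc1 by 1.37. For Myl1, the library labelled siUsf2 3 had 123 CPM, against 38.2 to 42.1 CPM in siControl. Ccnd1, cyclin D1, rose by 0.31. In the library labelled siUsf2 3, Ccnd1 was at 115 CPM, against 109 to 114 CPM in siControl. Mybpc1 was at 4.39 CPM there, below every siControl library. With all 6 libraries edgeR called 0 genes in any of these lists.

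**Figure D4:**
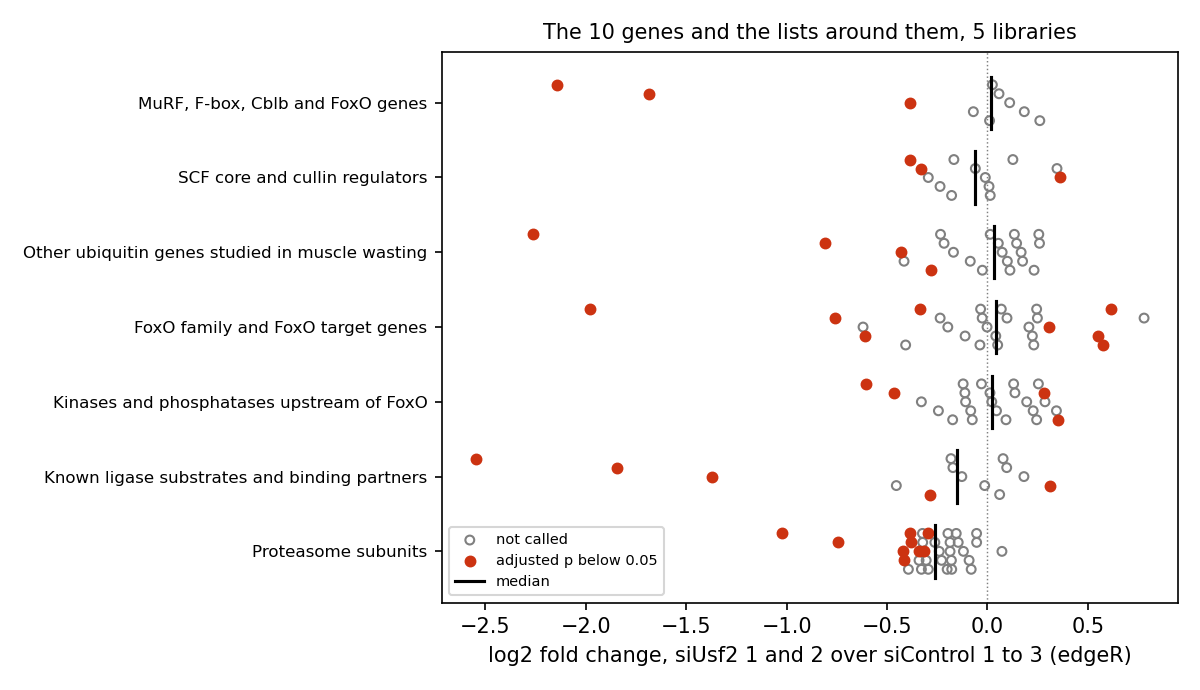
Log2 fold change of siUsf2 1 and 2 over siControl 1 to 3 (horizontal axis, edgeR) for each tested gene of the 10 and of the 6 lists around them (vertical axis; points are spread vertically only to separate them), with filled points at an adjusted p below 0.05 and black bars at list medians. The MuRF genes stand at -2.14, -1.68 and -0.38, and the medians of the lists lie between -0.26 and 0.04.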

How the data were processed

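RNA of 6 C2C12 libraries was compared, grouped by sample title. The deposited values are whole-number read counts per Ensembl gene, and per the submitters' processing notes the build was mm10 and the tools FastQC, Trimmomatic, HISAT2, featureCounts and DESeq2. Tool versions, the strand setting and the annotation behind the counts are not given in the sources at hand. The other deposited table was not analysed here. Symbols (52133 of 55414 identifiers matched), positions and exon lengths came from GENCODE M21 (GRCm38), promoters from RefSeq (GRCm38.p6).

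Counts were fitted with edgeR 4.0.16 in R 4.3.3 (filterByExpr, TMM, robust quasi-likelihood test, two-sided, Benjamini-Hochberg over all genes tested), with 5 and with 6 libraries. SEs and intervals follow from the F statistic. CPM and RPKM use the column totals. A count of 0 allows up to 0.169 to 0.879 CPM (3 counts); these limits and the Poisson intervals cover counting error only. The 10 genes and the lists were chosen with earlier results of these data known, and lists were described by up to 4 members with the smallest p, not all of which are reported here. Alternatives were other normalizations and filters, DESeq2 1.42.0, limma-voom and limma (3.58.1), a stricter threshold, a replicate block, and each library left out. The addition of pseudogene counts was chosen after seeing the data. The fit was tested on simulated counts whose spread between replicates was far below that of the 6 libraries (40.01%). That test therefore does not show how the 6-library fit performs on these data.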

Additional observations from a re-analysis of the deposited data

How the results depend on the processing

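In the 5 libraries Trim63 and Trim54 kept their calls under all 15 refits. Trim55 was lower in each of the 15, and its call ended without siUsf2 1 (log2 fold change -0.26) and at a threshold of 0.01, where 2 of the 10 genes were called. The number of the 10 called ranged from 2 to 3 with 1 library left out of 5. With all 6 it was 0, 1 with DESeq2, and 0 to 3 with 1 library left out, 3 being the value without siUsf2 3. Over all genes, the 6-library count of 7 became 4 with RLE normalization, 3 with library size only, 0 with upper-quartile normalization, 0 at a threshold of 0.01, 706 with DESeq2, 104 with limma-voom and 116 with no filter, and ranged from 0 to 1957 with 1 library left out. The 5-library count of 1957 became 938 at a threshold of 0.01 and ranged from 868 to 3560 with 1 library left out. With upper-quartile normalization the 5-library split was 1124 higher and 900 lower, against 855 and 1102.

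Deviations of same-numbered libraries from their group means had r = -0.074, -0.0049 and -0.073. The siUsf2 deviations were taken from a mean that includes the library labelled siUsf2 3. So these r values cannot show whether the numbers pair cultures, and the labels do not say. With a replicate block the counts were 0 in the 6 libraries and 3989 in the 5, with 0 and 3 of the 10 genes called. In the 5-library block fit siControl 3 had no same-numbered siUsf2 library, so it did not inform the comparison. The 3989 is therefore not the effect of blocking alone.

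Some log2 fold changes of uncalled genes crossed 0. In the 6 libraries Cblb, at -0.03, was 0.012 with upper-quartile normalization, 0.0010 with library size only and 0.011 with limma-voom. With 1 of 6 libraries left out, the ranges were -0.12 to 0.11 for Cblb, -0.053 to 0.18 for Foxo3, -0.070 to 0.27 for Fbxo31, -0.19 to 0.011 for Fbxo32, -0.26 to 0.025 for Fbxo30 and -0.21 to 0.058 for Foxo1. With 1 of 5 left out they were -0.090 to 0.11 for Fbxo32, -0.034 to 0.12 for Fbxo30, -0.28 to 0.11 for Fbxo31 and -0.10 to 0.20 for Foxo1. The cause was not tested. Where siUsf2 has 1 library left, it is assumed to vary like siControl. Trim63 in the library labelled siUsf2 3 rests on 12 counts.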
